A study of Mus musculus with 8 samples.

Results

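All 8 arrays of the series were compared in 2 classes that were chosen by the measured level of Cbx3 and not by the titles of the samples. Cbx3 encodes HP1gamma, the protein whose loss the series studies. The rule took 1 Cbx3 probe of the scanner data and each array's log2 processed signal relative to the 75th percentile of its non-control spots. Arrays under 0 on this scale formed the Cbx3-low class, which held 5 of 8 arrays: those labelled KO floating 1, 2 and 3, KO adherent 1 and WT floating 2. Arrays over 0 formed the Cbx3-high class, which held the 3 others: WT floating 1, WT floating 3 and KO adherent 2. The Cbx3 level of 2 arrays opposes their titles, WT floating 2 and KO adherent 2. Whether these 2 titles were exchanged was not tested. Because the classes were made from these same arrays, a difference between them is an association with the Cbx3 level and is not an effect of a labelled genotype.

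The samples were mouse neurospheres, clusters that neural stem cells form in culture, from the ganglionic eminence of E14.5 embryos. Per the labels, each sample was grown from 1 embryonic brain, and RNA was taken from quaternary neurospheres. The 1-colour arrays all lay on 1 slide, per the file headers. The titled groups were wild type in floating culture (WT floating, 3 arrays), HP1gamma knockout in floating culture (KO floating, 3 arrays) and HP1gamma knockout in adherent culture (KO adherent, 2 arrays). The labels describe 1 medium with EGF and bFGF on low-attachment plates for every sample. They say nothing more of the adherent culture, of the knockout allele, or of whether a floating and an adherent sample share an embryo. If they do, arrays of 1 class are not independent. The p-values below measure the spread among these 8 samples, and the number of arrays limits their precision.

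HP1gamma is 1 of the HP1 proteins, which read methylated lysine 9 of histone H3 and help to keep repeats and genes silent. It is also found over transcribed genes. Neurospheres are kept dividing by EGF and FGF, hold stem-like cells beside cells on the way to neurons, astrocytes and oligodendrocytes, and depend on Notch signalling to stay undifferentiated. In bulk RNA of such cultures, fewer cells of a type and less RNA per cell cannot be told apart.

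The Cbx3 values that made the classes are a description and carry no test. The rule's probe read 5.83 on WT floating 1, 5.95 on WT floating 3 and 5.91 on KO adherent 2. It read -2.17 on WT floating 2, -1.86, -2.76 and -1.75 on KO floating 1, 2 and 3, and -2.03 on KO adherent 1. The array nearest to the border from below was KO floating 3 and from above WT floating 1, with a gap of 7.59 between them on the log2 scale. The other Cbx3 probe gave 3.40 to 3.98 in the high class and -4.57 to -2.08 in the low class. Whether these probes lie in a part of the gene that the knockout removes was not tested. Both probes were left out of every fit and count.

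The 3 Cbx3-high arrays were alike across features (r = 0.9875 to 0.9881 in 3 pairs), and the 5 Cbx3-low arrays were more varied (0.9463 to 0.9913 in 10 pairs). Pairs across the classes had r = 0.9411 to 0.9732, which overlaps the range within the low class. On the first principal component, which held 50.6% of the variance, the high arrays lay between -82.6 and -68.3 and the low arrays between -2.3 and 86.7. KO floating 3 stood apart, at -2.3 on the first component and 102.5 on the second, where all other arrays lay between -38.4 and 17.4. WT floating 2 and KO floating 2 stood apart in their immediate early genes (below). Between 44.5% and 49.3% of spots were well above background on the high arrays and between 47.5% and 55.4% on the low arrays. Y-linked genes were above background on 1 array of each class, WT floating 1 and KO floating 3, and a fit with Y-linked expression as a covariate called 6669 features, against the 7754 given below.

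**Figure D1:**
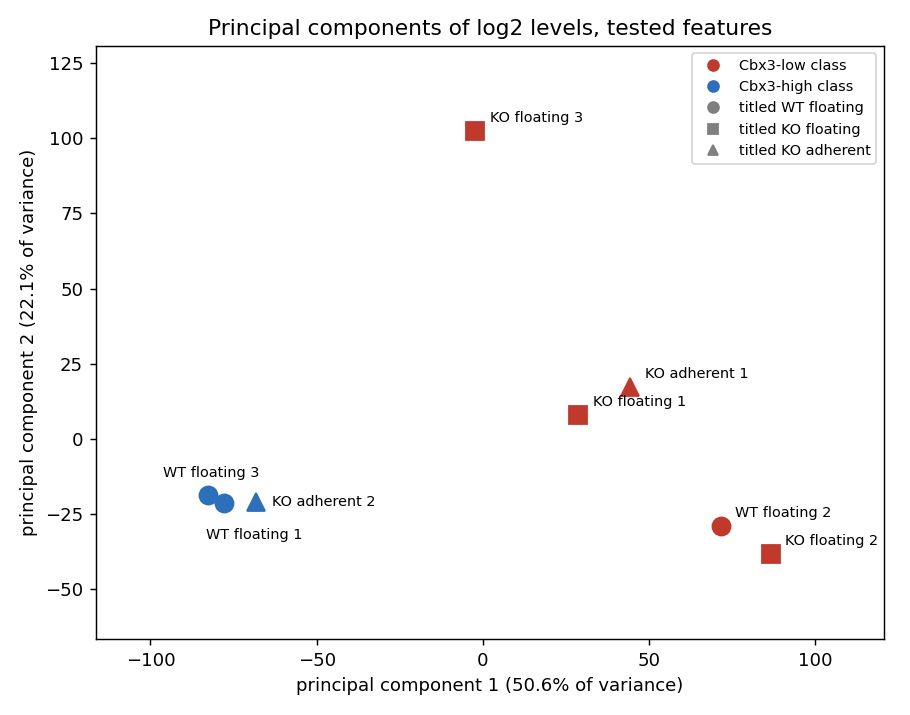
First principal component (horizontal, percent of variance in the axis label) against the second (vertical) for the 8 arrays, 1 point each, with colour for the Cbx3 class and shape for the title. The 3 Cbx3-high arrays lie together at the left, the Cbx3-low arrays lie to their right, and KO floating 3 lies apart at 102.5 on the second component.

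The neurosphere label was borne out by its markers. Sox2, Nes, Vim, Pax6, Nr2e1 and Fabp7, genes of neural stem and radial glial cells, were above background on all 8 arrays. Of the 20 microglia and blood cell markers, 6 had a tested probe and 0 of these passed the threshold (against 31.4% of all features, median difference -0.19). Of the 21 endothelial, mural and meningeal markers, 8 had one, and 2 were lower in the low class (25%, against 16% of all features, median -0.67). They were Acta2, smooth muscle actin, by -2.73 (SE 0.57, limma adjusted p = 0.0111) and Foxc1, a meningeal transcription factor, by -1.23 (SE 0.27, adjusted p = 0.0129). Without the 2 arrays whose titles oppose their Cbx3 level neither of them passed.

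Of 24665 features tested, 7754 (31.4%) passed the threshold, a Benjamini-Hochberg adjusted p of 0.05 in limma. They were split into 3815 (15.5%) higher and 3939 (16%) lower in the Cbx3-low class, and the median difference over all features was -0.056 on the log2 scale. Large differences were more often upward: 1853 of the features that passed were at least 2-fold higher and 912 at least 2-fold lower, and 98 against 70 differed by at least 8-fold as fitted. For 811 of the higher features no Cbx3-high array was well above background, against 39 lower features that no Cbx3-low array showed above background. Such differences are bounds, given below as "at least". A feature above background in 1 class alone entered the test through that class, which fixed its direction, so no p is given for it. With a filter on all arrays, 2737 of 18915 features were higher and 4110 lower. Of the 22894 features above background on at least 1 array of each class, 13.1% were higher and 17% lower. The array values of the classes did not overlap for 9600 features (38.9%), 7308 of which also passed limma. Leaving out 1 high array changed the count of 7754 to 4083 (WT floating 1), 3530 (WT floating 3) or 5162 (KO adherent 2). It lay between 5948 and 9301 when any 1 low array was left out, the highest being without KO floating 3.

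Detection also differed between the classes. Above background on all 5 low arrays and on 0 high arrays were 366 features (1.48%), and above background on all 3 high arrays and 0 low arrays were 39 (0.158%). Of the features without a gene symbol, 18.2% were higher and 13.4% lower in the low class. Of the features with a symbol, 13.3% were higher and 18.0% lower.

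The leading genes of the low class were close to or under background on the high arrays. Cyp2b13, a cytochrome P450, read 0.56 on WT floating 2, 0.35, 1.38 and 0.89 on KO floating 1, 2 and 3 and 0.79 on KO adherent 1. On the high arrays WT floating 1, WT floating 3 and KO adherent 2 it read -6.37, -5.69 and -6.46, so the classes lay far apart. It was above background on 5 of 5 low and 0 of 3 high arrays and its level in the low class was at least 26.7-fold that in the high class. Cyp2b13 belongs to a family of near-identical genes, and the specificity of its probe was not tested.

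Others of the 12 largest upward differences had varied known roles. Tmem132b, a membrane protein of neurons, was at least 15.3-fold higher, Gjc3, a connexin of glia, at least 15.8-fold and Dscaml1, an adhesion molecule of neurons, at least 14.8-fold. Tal1, a transcription factor of blood cells and of some neurons, was at least 6.74-fold higher. The zinc finger genes Zfp982 and Zfp345, of large families with similar members, were at least 8.01-fold and 4.08-fold higher, and Gpr153, an orphan receptor, differed by 4.30 (SE 0.60), with 1 of 3 high arrays above background. Nlrp5, a gene best known from oocytes, read -3.08 on WT floating 3 and -5.01 and -6.22 on the other high arrays, against -0.55 to 0.41 on the low arrays, and was above background on 1 high array.

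**Figure D2:**
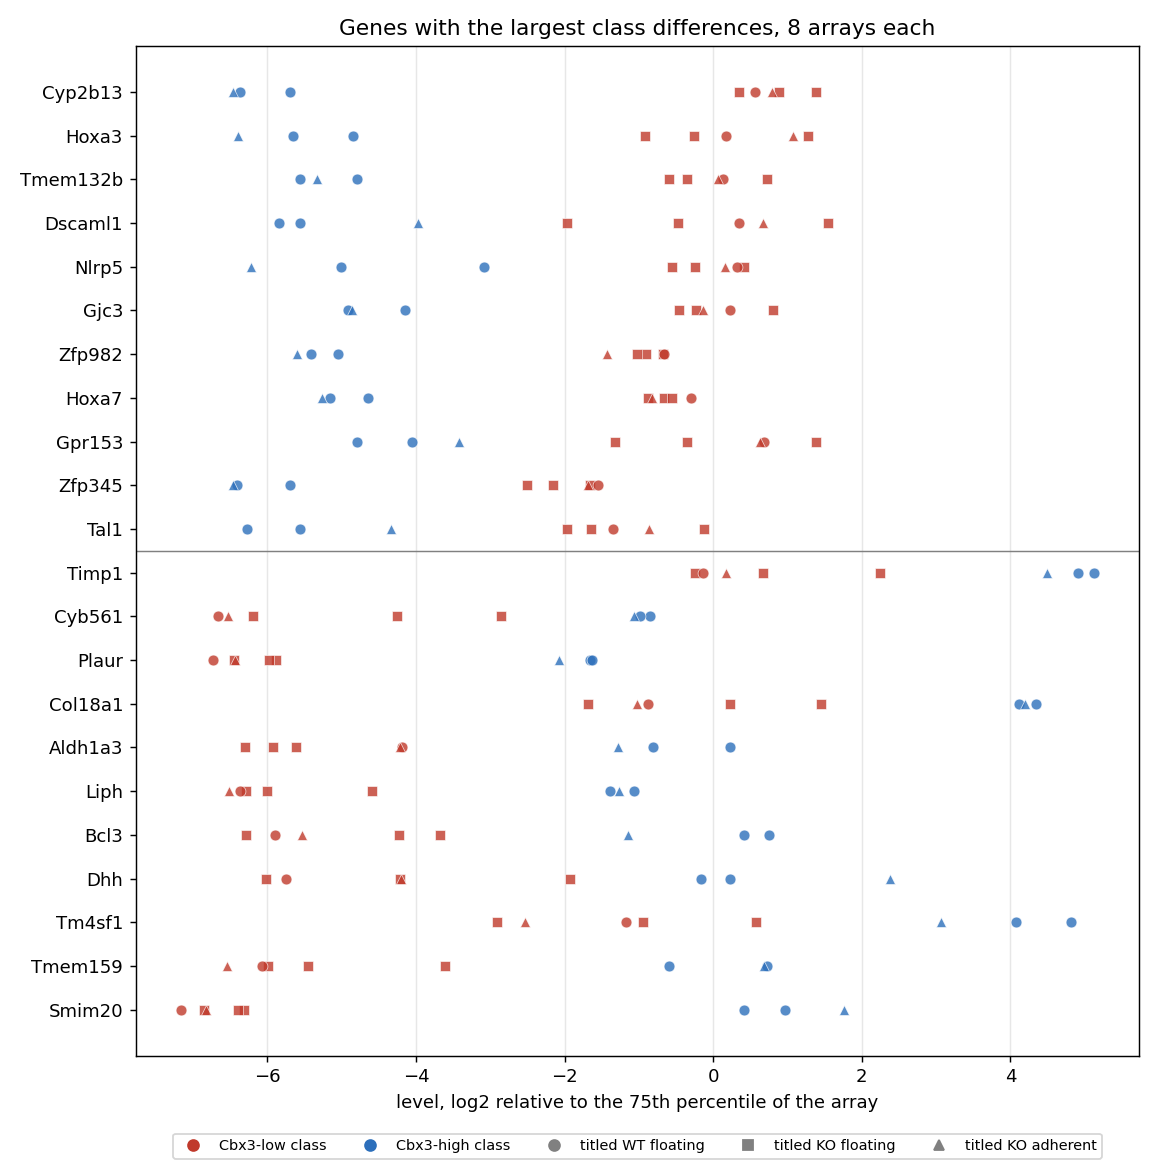
Level of 11 of the 12 genes with the largest higher and 11 of the 12 with the largest lower difference (rows) on each of the 8 arrays (points), in log2 relative to the array's 75th percentile (horizontal axis), with colour for the Cbx3 class and shape for the title. In each of the 22 rows the classes do not overlap, as the rule for naming these genes required, and WT floating 2 and KO adherent 2 lie with their Cbx3 class.

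Homeobox genes of the Hoxa cluster, which give position along the body axis and are normally silent in the forebrain, were among them. Of 12 Hoxa genes with a probe, 7 were tested. The 4 that passed as higher were above background in the low class alone, and of the other 3 none passed, with a median of 1.38. Hoxa7 read -0.30 on WT floating 2, -0.66, -0.55 and -0.88 on KO floating 1, 2 and 3 and -0.83 on KO adherent 1, against -5.16, -4.65 and -5.26 on WT floating 1, WT floating 3 and KO adherent 2. The low class exceeded the high class at least 9.84-fold. For Hoxa3 the bound was 18.5-fold, while Hoxa5 (2.17, SE 0.81) and Hoxa2 (1.38, SE 0.91), each above background on 1 high array, did not pass.

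The Hoxa genes lie on chromosome 6 beside Cbx3. Among the 10 nearest tested genes on each side of Cbx3, by their order in the RefSeq table of the GRCm38.p6 assembly, 10 of 20 passed (50%), 7 higher and 3 lower, against 36.6% of 674 genes on the chromosome and 31.4% of all 13778 genes with a symbol. Its direct neighbours did not pass: Hnrnpa2b1, an RNA-binding protein, differed by 0.23 (SE 0.13) and Snx10, a sorting nexin, by -0.20 (SE 0.09). Skap2, a signalling adaptor between Snx10 and the Hoxa cluster, was higher by 2.70 (SE 0.39, adjusted p = 0.00379), with 2.36 to 4.25 on the low and 0.61 to 0.98 on the high arrays.

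Clustered protocadherins, adhesion proteins that give neurons a surface identity and whose promoter choice is tied to DNA methylation and the insulator protein CTCF, were higher as far as they passed. Of 29 tested genes 15 were higher and 0 lower (51.7%, against 15.5% of all features), with a median of 1.38. Without the 6 that were above background in 1 class alone, 10 of 23 were higher (43.5%) and 0 lower, with a median of 1.09. Of all features above background in both classes, 13.1% were higher and 17% lower. Pcdhac2 read 3.80 on WT floating 2, 3.52, 3.70 and 2.97 on KO floating 1, 2 and 3 and 3.27 on KO adherent 1, and 0.04, 0.68 and 0.29 on WT floating 1, WT floating 3 and KO adherent 2. Its difference was 3.12 (SE 0.23, adjusted p = 0.000588), measured on all 8 arrays. Pcdhb3 was higher by 3.93 (SE 0.44) and Pcdha8 by 3.00 (SE 0.26), both also above background on every array, and Pcdha4 and Pcdha9 were at least 4.07-fold and 4.16-fold higher. The copies resemble each other, and how far a probe reads a single copy was not tested. Without the 2 arrays whose titles oppose their Cbx3 level 10 were higher (median 1.35), against 6.5% of all features.

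Of 24 Notch pathway genes 5 were higher (20.8%, against 15.5% of all features) and 0 lower (against 16%), with a median of 0.14, and the other 19 did not pass. Hes5, a Notch target that holds back neuronal differentiation, read 7.80 on WT floating 2, 8.06, 8.27 and 7.48 on KO floating 1, 2 and 3 and 8.57 on KO adherent 1. On WT floating 1, WT floating 3 and KO adherent 2 it read 4.64, 5.11 and 5.80, a difference of 2.85 (SE 0.31, limma adjusted p = 0.00205) with no overlap. Lfng, which modifies Notch receptors, was higher by 1.41 (SE 0.19), Hes6, which opposes Hes1, by 1.39 (SE 0.16), Dll1, a Notch ligand, by 1.37 (SE 0.36) and Maml2, a co-activator, by 0.79.

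The promoters of Hes5 and Lfng are shown because Notch acts on DNA through RBPJ, and that of Plaur, among the largest lower genes, because the early gene family of Fos and Jun acts through the AP-1 word. The windows hold 300 bases around the transcription start in the RefSeq table (GRCm38.p6) and read 5′ to 3′ on the gene's strand. Capitals mark the RBPJ word GTGGGAA and the AP-1 word TGANTCA on either strand, and in Lfng also the E-box CACGTG, which shares letters with the RBPJ word. Not every higher Notch gene had the RBPJ word: the windows of Dll1, not shown, lack it. That at chr17:15376883-15377182 holds the AP-1 word. Hes5 lies at chr4:154960673-154960972 (plus strand), Lfng at chr5:140607091-140607390 (plus strand) and Plaur at chr7:24462233-24462532 (plus strand).
Hes5: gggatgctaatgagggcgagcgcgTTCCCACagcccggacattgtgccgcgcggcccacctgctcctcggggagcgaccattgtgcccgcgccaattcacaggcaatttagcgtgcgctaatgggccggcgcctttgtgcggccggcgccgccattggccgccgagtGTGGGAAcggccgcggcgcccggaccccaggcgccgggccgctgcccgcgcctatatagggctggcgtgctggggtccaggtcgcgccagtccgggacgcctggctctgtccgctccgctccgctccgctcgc
Lfng: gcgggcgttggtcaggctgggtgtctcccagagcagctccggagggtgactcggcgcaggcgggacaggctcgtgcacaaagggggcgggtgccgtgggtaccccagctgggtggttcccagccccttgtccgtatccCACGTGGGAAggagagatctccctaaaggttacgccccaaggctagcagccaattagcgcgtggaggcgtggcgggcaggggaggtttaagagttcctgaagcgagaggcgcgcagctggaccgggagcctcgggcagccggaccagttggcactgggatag
Plaur: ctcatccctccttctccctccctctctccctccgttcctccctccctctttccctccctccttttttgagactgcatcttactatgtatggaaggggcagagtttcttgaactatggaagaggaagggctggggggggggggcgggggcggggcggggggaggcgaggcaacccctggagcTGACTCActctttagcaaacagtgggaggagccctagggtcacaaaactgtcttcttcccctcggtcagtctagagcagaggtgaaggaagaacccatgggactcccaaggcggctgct

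Across the table, 6.38% of 32851 windows held the RBPJ word, 7.81% the AP-1 word and 7.15% the E-box. Among 13970 windows of tested genes the shares were 6.06%, 5.13% and 9.63%. Over all genes that passed, windows of higher genes held the RBPJ word in 7.8% and the AP-1 word in 4.01%. Those of lower genes held them in 5.77% and 5.58%. Windows of genes at least 4-fold higher in the low class held the RBPJ word in 22 of 208 (10.6%) and the AP-1 word in 5 (2.4%). Windows of genes at least 4-fold lower held the RBPJ word in 15 of 174 (8.62%) and the AP-1 word in 20 (11.5%). A gene can have several windows, and the base composition of these groups differs (a median of 10 and 14 CG pairs a window, against 19 for tested genes), so the shares are descriptions of letters.

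Of 21 neural stem and radial glial genes 8 were higher (38.1%, against 15.5% of all features) and 4 lower (19%, near the 16% of all features), with a median of 0.43. Fabp7, a fatty acid carrier of radial glia, was higher by 0.86 (SE 0.20), Nr2e1, a nuclear receptor that keeps stem cells dividing, by 0.85 (SE 0.22) and the stem cell factor Sox2 by 0.45 (SE 0.10). The intermediate filament genes were lower, Nes by -0.77 (SE 0.19) and Vim by -0.59 (SE 0.13), as were Tnc, a matrix protein of the stem cell niche, by -2.10 (SE 0.29) and Hopx by -1.29 (SE 0.32). Sox2 read 3.72 to 3.92 on the low and 3.35 to 3.39 on the high arrays, a gap wider than the range within either class. On the 6 arrays whose titles follow their Cbx3 level, 3 were higher and 2 lower (against 6.5% and 4.45% of all features).

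Proneural and neurogenic factors, which start neuronal differentiation, were higher in 8 of 11 tested genes (72.7%, against 15.5% of all features) and lower in 0, with a median of 1.39. Of the 11, 4 were above background in 1 class alone. Of the other 7, 4 were higher (57.1%, against 13.1% of features above background in both classes), with a median of 0.84. Scrt1, a neuronal repressor, read -2.48 on WT floating 2, -2.90, -1.11 and -2.92 on KO floating 1, 2 and 3 and -2.44 on KO adherent 1, and -5.78, -5.61 and -5.11 on WT floating 1, WT floating 3 and KO adherent 2. It was above background on all low and on 0 high arrays and at least 2.97-fold higher. Myt1, a zinc finger transcription factor, was at least 2.42-fold higher and Neurog2, a cortical proneural factor, at least 1.69-fold. Leaving out the pair of arrays with opposing titles, 6 were higher and 0 lower (against 6.5% and 4.45% of all features).

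Of 19 pan-neuronal genes 7 were higher (36.8%, against 15.5% of all features) and 3 lower (15.8%, near the 16%), with a median of 0.16. Without the 2 that were above background in 1 class alone, 5 of 17 were higher (29.4%) and the median was -0.07. Of all features above background in both classes, 13.1% were higher. Tubb3, neuronal tubulin, was higher by 1.21 (SE 0.13, adjusted p = 0.00179), with 1.05 to 1.51 on the low and -0.03 to 0.12 on the high arrays. Dcx, a microtubule protein of migrating neurons, was at least 3.04-fold higher, and Rbfox3, the antigen of mature neurons known as NeuN, was higher by 2.99 (SE 0.56), with 2 of 3 high arrays above background. Stmn4, a tubulin-binding protein, was lower by -2.59 (SE 0.26, adjusted p = 0.00158), and Ncam1, an adhesion molecule, by -0.76. The list's median fell under 0 when probes had to be above background on all arrays, which the stem, Notch, proneural, astrocyte and oligodendrocyte medians did not.

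Astrocyte genes were higher in 12 of 23 (52.2%, against 15.5% of all features) and lower in 2 (8.7%, against 16%), with a median of 0.56. Without the 1 that was above background in 1 class alone, 11 of 22 were higher (50%) and 2 lower, with a median of 0.47. Of all features above background in both classes, 13.1% were higher and 17% lower. Aldoc, a glycolytic enzyme of astrocytes, read 6.66 on WT floating 2, 6.38, 7.55 and 6.11 on KO floating 1, 2 and 3 and 7.31 on KO adherent 1. It read 3.62, 4.46 and 5.12 on WT floating 1, WT floating 3 and KO adherent 2, a difference of 2.40 (SE 0.42, adjusted p = 0.00682) with no overlap. Slc1a2, a glutamate transporter, was higher by 1.53 (SE 0.23) and Apoe, a lipid carrier, by 1.49 (SE 0.23). Gfap, the filament of reactive and mature astrocytes, was lower by -1.83 (SE 0.52, adjusted p = 0.0303) but was above background on 1 low and 2 high arrays, and Cd44, a hyaluronan receptor, was lower by -0.75. Without the 2 arrays with opposing titles 7 were higher and 2 lower (against 6.5% and 4.45% of all features).

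Of 16 oligodendrocyte lineage genes 6 were higher (37.5%, against 15.5% of all features) and 2 lower (12.5%, against 16%). The median was 0.42, and 0.19 without the 2 that were above background in 1 class alone. Olig1, a transcription factor of the lineage, was higher by 1.79 (SE 0.23) and Pdgfra, the growth factor receptor of precursors, by 1.69 (SE 0.31). Gpr17, a receptor of cells leaving the precursor stage, was at least 1.49-fold higher. Mbp, a protein of mature myelin, was lower by -1.84 (SE 0.30) and Bcas1, of newly myelinating cells, by -0.80.

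**Figure D3:**
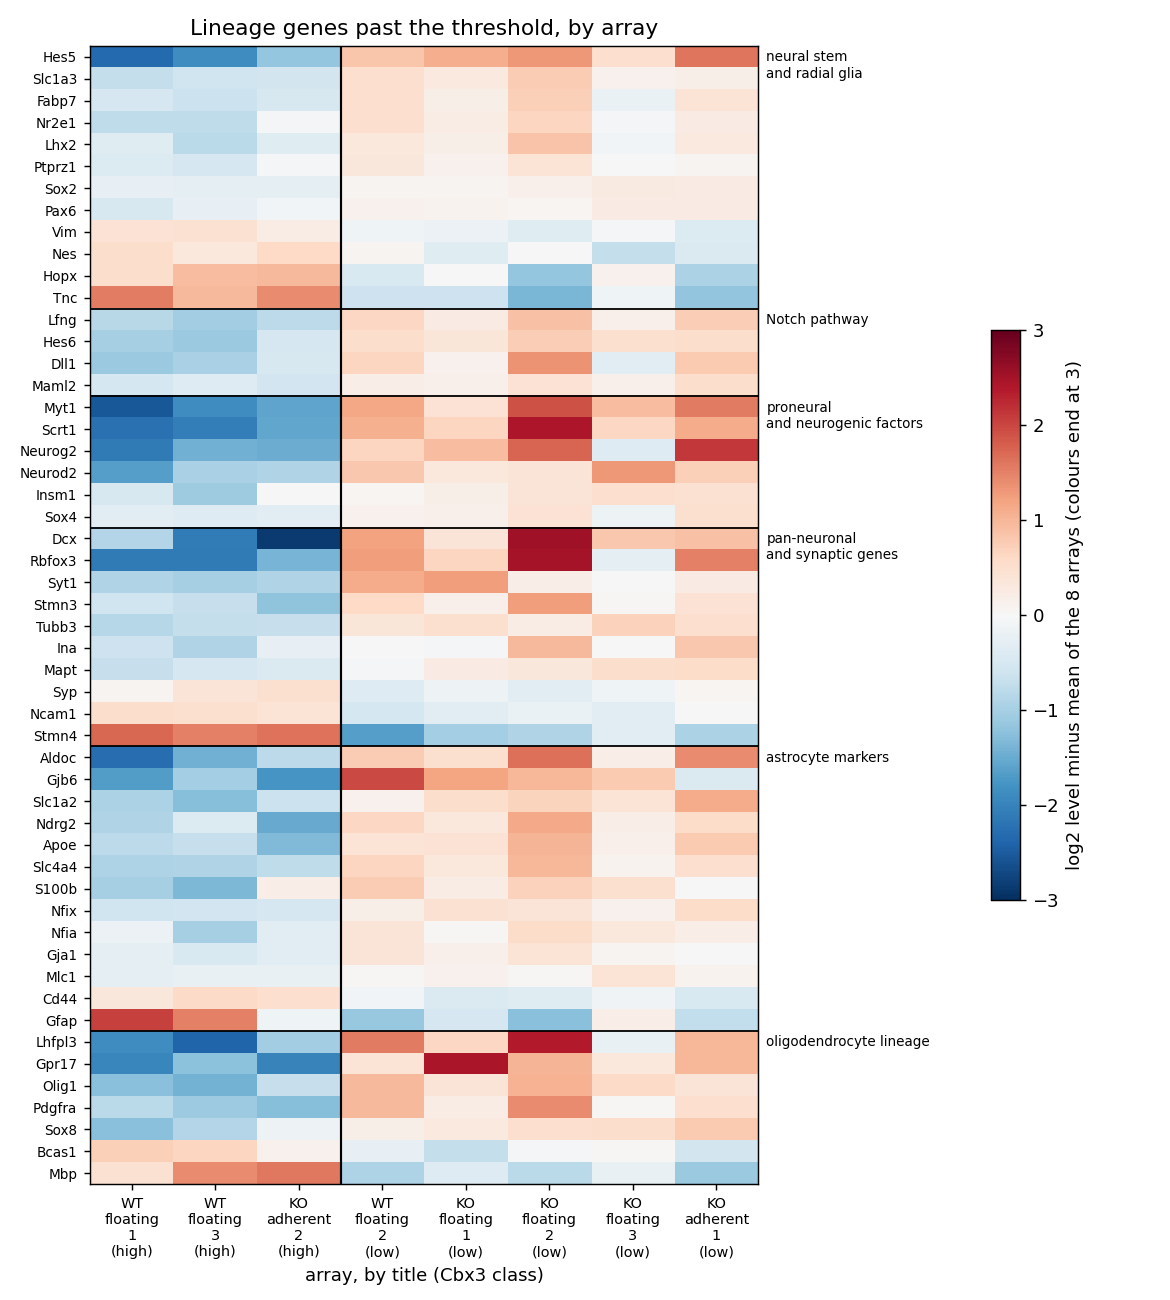
Genes of 6 neural lists that passed the threshold (52 rows, grouped by list) on the 8 arrays (columns), coloured by log2 level minus the gene's mean over the arrays, with the 3 Cbx3-high arrays left of the vertical line. Most rows are blue at the left and red at the right, Nes, Vim, Tnc, Stmn4, Gfap and Mbp run the other way, and KO floating 3 is paler than the other low arrays in many rows, such as Lhfpl3 and Rbfox3.

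Of 17 tested genes of the ganglionic eminence and of GABAergic neurons 2 were higher (11.8%) and 3 lower (17.6%), with a median of -0.30. These shares were near the 15.5% and 16% of all features. Both of the higher genes were above background in the low class alone. One was Gsx1, a patterning factor, on 4 low and 0 high arrays, with no bound above 1. Ebf1, a factor of striatal neurons, was lower by -0.88 (SE 0.20), and Gad1, which makes GABA, differed by -0.30 (SE 0.36), not past the threshold. On the 6 arrays whose titles follow their Cbx3 level, 0 were higher and 2 lower (against 6.5% and 4.45% of all features).

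The genes with the largest lower differences also had varied known roles. Smim20, a small mitochondrial protein, read 0.97, 0.42 and 1.76 on WT floating 1, WT floating 3 and KO adherent 2. It read -7.16 on WT floating 2, -6.85, -6.32 and -6.39 on KO floating 1, 2 and 3 and -6.83 on KO adherent 1, under background on all 5. It was at least 44.5-fold lower in the low class, the largest bound among the named genes. Tm4sf1, a membrane protein, was lower by -5.38 (SE 0.79), Dhh, a hedgehog ligand, by -5.24 (SE 0.97), Bcl3, a partner of NF-kappaB, by -5.14 (SE 0.69) and Tmem159, a lipid droplet protein, by -5.80 (SE 0.65). Of the low arrays, 3 were above background for Dhh, 2 for Bcl3 and 1 for Tmem159, so the sizes of these differences rest in part on values at background. Liph, a lipase, was at least 9.12-fold lower.

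Retinoic acid genes were lower in 7 of 15 (46.7%, against 16% of all features) and higher in 2 (13.3%, against 15.5%), with a median of -0.35. Retinoic acid, made from vitamin A, drives neural differentiation. The enzymes Aldh1a1 and Aldh1a3, which make retinoic acid, went opposite ways. Aldh1a3 read 0.23, -0.81 and -1.28 on WT floating 1, WT floating 3 and KO adherent 2, and -4.19 on WT floating 2, -5.61, -6.30 and -5.93 on KO floating 1, 2 and 3 and -4.21 on KO adherent 1. Its classes did not overlap, and its difference was -4.63 (SE 0.58, adjusted p = 0.00282), with 2 low arrays above background. Aldh1a1 read 2.56 to 3.48 on the low and -0.97 to 0.05 on the high arrays, higher by 3.43 (SE 0.29, adjusted p = 0.00102). The receptors Rarb and Rarg were lower by -1.56 (SE 0.32) and -0.94, Dhrs3, which turns retinal back to retinol, by -1.69 (SE 0.48), and Cyp26b1, which degrades retinoic acid, was higher by 1.04 (SE 0.31), with 2 high arrays above background. Leaving out the pair of arrays with opposing titles, 1 was higher and 5 lower (against 6.5% and 4.45% of all features).

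The list of the plasminogen system, metalloproteinases and their inhibitors, which remodel matrix around cells, had 18 tested genes. Of these 8 were lower (44.4%, against 16% of all features) and 5 higher (27.8%, against 15.5%), with a median of -0.66. Without the 3 that were above background in 1 class alone, 7 of 15 were lower (46.7%) and 3 higher (20%), with a median of -0.74. Of all features above background in both classes, 17% were lower and 13.1% higher. Plaur, the urokinase receptor, read -1.66, -1.63 and -2.07 on WT floating 1, WT floating 3 and KO adherent 2 and -6.73 to -5.89 on the low arrays, 0 of which was above background. It was at least 6.23-fold lower. Among the inhibitors Timp1 was lower by -4.30 (SE 0.54, adjusted p = 0.0028), while Timp2 and Timp4 were higher by 0.96 (SE 0.11) and 1.24 (SE 0.20). Among the proteases Mmp14 was lower by -2.43 (SE 0.68), and Mmp2 and Adamts5 were at least 2.33-fold and 1.55-fold higher, each on 4 low and 0 high arrays above background.

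Extracellular matrix and adhesion genes were lower in 14 of 41 (34.1%, against 16% of all features) and higher in 3 (7.32%, against 15.5%), with a median of -0.35. Col18a1, a basement membrane collagen, read 4.34, 4.11 and 4.20 on WT floating 1, WT floating 3 and KO adherent 2, -0.88 on WT floating 2, 0.22, -1.69 and 1.45 on KO floating 1, 2 and 3 and -1.02 on KO adherent 1. Its difference was -4.60 (SE 0.64, adjusted p = 0.00353). The laminin chain Lamc1 and the integrin Itgb1, which binds laminin, were lower by -1.05 (SE 0.12) and -1.09 (SE 0.22). Higher were Cdh11, a cadherin, by 2.83 (SE 0.35) and 2 proteins of the neural matrix, Tnr by 2.63 (SE 0.60) and Bcan by 0.81, with Cdh11 above background on 2 high arrays and Tnr on 1. Without the 2 arrays with opposing titles 8 were lower and 3 higher (against 4.45% and 6.5% of all features).

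Of 20 EGF and FGF pathway genes 3 were lower (15%, near the 16% of all features) and 2 higher (10%, against 15.5%), with a median of -0.27. Lower were the EGF receptor ligands Areg and Hbegf by -2.96 (SE 0.50) and -2.35 (SE 0.28), and the FGF target Etv5, by -0.40, while the receptor Egfr was higher by 0.68 (SE 0.18) and Etv4 by 1.31 (SE 0.32). Both other Egfr probes had the opposite sign. Of 14 D-type cyclins and CDK inhibitors 5 were lower (35.7%, against 16% of all features) and 0 higher (against 15.5%), with a median of -0.44. Ccnd1, the cyclin D1 that takes cells out of G1, read 6.38, 6.39 and 6.45 on WT floating 1, WT floating 3 and KO adherent 2, 4.82 on WT floating 2, 4.22, 3.92 and 4.74 on KO floating 1, 2 and 3 and 3.41 on KO adherent 1. Its difference was -2.18 (SE 0.31, adjusted p = 0.00378), Ccnd2 was lower by -1.30 (SE 0.23), and the inhibitors Cdkn2b and Cdkn1a were lower by -1.34 (SE 0.26) and -1.55 (SE 0.49).

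Over 32 genes of DNA replication and mitosis the median was -0.17. It ranged from -0.36 to 0.01 under other settings, with 0.01 without WT floating 3. Of these genes 2 were lower (6.25%, against 16% of all features) and 0 higher (against 15.5%). The lower genes were E2f1, a transcription factor of S phase, by -1.33 (SE 0.29), and the helicase subunit Mcm2, by -0.51 (SE 0.14). Mki67, a marker of dividing cells, differed by 0.31 (SE 0.39) and did not pass.

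Cholesterol and fatty acid synthesis genes were lower in 11 of 29 (37.9%, against 16% of all features) and higher in 1 (3.45%, against 15.5%), with a median of -0.45. Scd1, which desaturates fatty acids, was lower by -1.41 (SE 0.34), Fdft1, squalene synthase, by -1.28 (SE 0.28) and the sterol isomerase Ebp by -1.05 (SE 0.19). Fasn, fatty acid synthase, was the member that was higher, by 0.79 (SE 0.19). On the 6 arrays whose titles follow their Cbx3 level, 2 were lower and 0 higher (against 4.45% and 6.5% of all features).

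Of 28 glycolysis and hypoxia genes 6 were lower (21.4%, against 16% of all features) and 1 higher (3.57%, against 15.5%), with a median of -0.49. Pfkp, a phosphofructokinase, was lower by -2.78 (SE 0.47) and Slc2a3, a glucose transporter, by -2.58 (SE 0.74). Ndrg1, a hypoxia-induced gene, was lower by -2.61 (SE 0.75) over 7 arrays, because its spot on KO floating 3 was flagged and left out. The 2 low arrays WT floating 2 and KO floating 2 had the lowest Slc2a3 values, 1.24 and 0.52, against 2.76 to 3.82 on the other low and 4.72 to 5.13 on the high arrays. Leaving out the pair of arrays with opposing titles, 0 genes of the list passed, where 6.5% of all features were higher and 4.45% lower. Without WT floating 2 and KO floating 2 the median was -0.14, with 7 lower and 3 higher. Of all 24665 features 3139 were lower and 3859 higher in that setting.

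Immediate early genes, which cells switch on within minutes of a stimulus, did not follow the Cbx3 class. Of 26 tested 0 passed (against 31.4% of all features), although the median was -1. Nr4a1, an immediate early receptor, read 7.43, 7.79 and 8.01 on WT floating 1, WT floating 3 and KO adherent 2 and 7.96, 7.96 and 7.93 on KO floating 1, KO floating 3 and KO adherent 1, but 4.50 on WT floating 2 and 4.83 on KO floating 2. Its difference of -1.11 (SE 0.93, adjusted p = 0.382) was thus carried by those 2 arrays, and was 0.21 without them. Fos, an AP-1 subunit, read 2.84 and 3.54 on the same 2 arrays and 5.86 to 6.79 on the others. Without them 8 genes of the list were higher and 0 lower (median 0.12), where 3859 of all 24665 features were higher and 3139 lower. Egr1 was then higher by 0.49. These 2 arrays were singled out by the same genes, so the values without them are a description and no p is given.

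**Figure D4:**
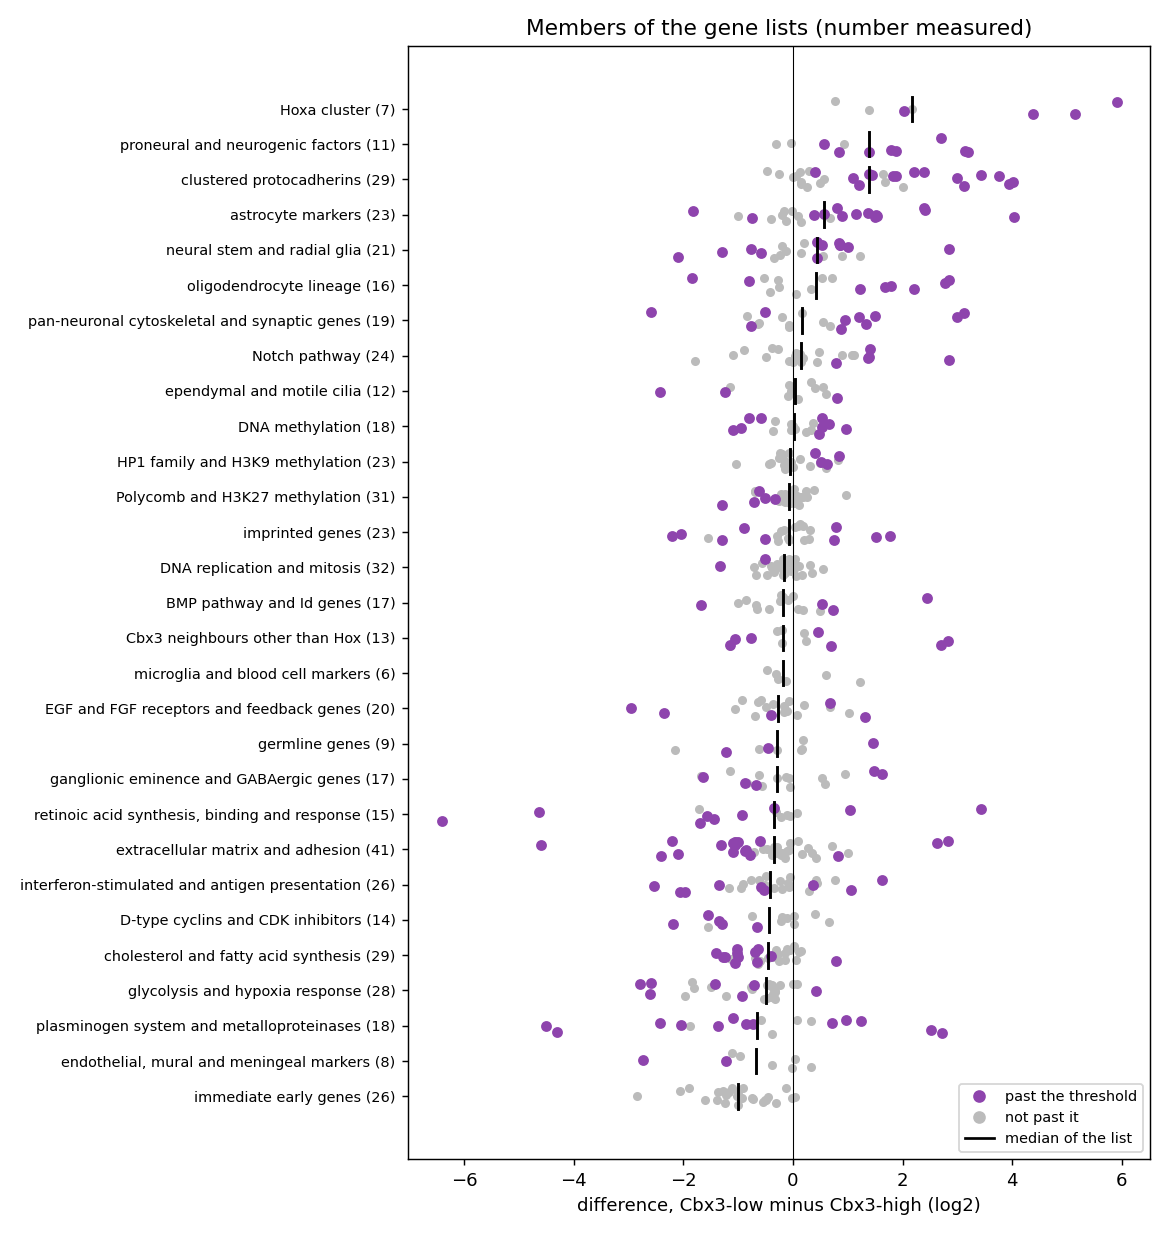
Log2 difference, Cbx3-low minus Cbx3-high (horizontal), of each tested member of 29 gene lists (rows, ordered by median, number tested in parentheses), with purple points for genes past the threshold, grey points for the others and a black bar for the list's median. The medians run from -1 for immediate early genes, with 0 purple points, to 2.17 for the Hoxa cluster, and most lists hold purple points on both sides of 0.

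Among genes of HP1 and of histone H3 lysine 9 methylation 4 of 23 were higher (17.4%) and 0 lower (median -0.05): the demethylase Kdm3b by 0.85 (SE 0.24), the HP1 partners Adnp by 0.63 (SE 0.14) and Pogz by 0.51 (SE 0.13), and the methyltransferase Suv39h1 by 0.40 (SE 0.11). The other HP1 genes Cbx5 (HP1alpha) and Cbx1 (HP1beta) differed by 0.60 (SE 0.20, adjusted p = 0.051) and 0.49 (SE 0.19, adjusted p = 0.0797), neither past the threshold. The share of higher genes is close to the 15.5% of all features, and 16% of all features were lower.

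The title of the series names methylation of histone H3 at lysine 27, the mark that Polycomb proteins set on silent developmental genes. Of 31 genes of this machinery 5 were lower (16.1%, against 16% of all features) and 0 higher (against 15.5%), with a median of -0.07. Pcgf5, of Polycomb complex 1, was lower by -1.29 (SE 0.36), Eed, a core subunit of complex 2, by -0.72 (SE 0.17), Phc2 by -0.61 (SE 0.13) and Rbbp7 by -0.51 (SE 0.15). Ezh2, the enzyme that sets the mark, differed by -0.16 (SE 0.15) and did not pass. The arrays measure RNA, and the mark itself was not measured here.

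Of 18 DNA methylation genes 5 were higher (27.8%, against 15.5% of all features) and 4 lower (22.2%, against 16%), with a median of 0.02. Tet1, which oxidises methylcytosine, was higher by 0.96 (SE 0.19) and its relative Tet3 lower by -0.94 (SE 0.27). Of 23 imprinted genes, expressed from 1 parental copy, 4 were higher (17.4%) and 5 lower (21.7%), both near the 15.5% and 16% of all features (median -0.07), with Nnat higher by 1.77 (SE 0.31) and Peg10 lower by -2.20 (SE 0.31). Of 9 germline genes 1 was higher (11.1%, against 15.5% of all features) and 2 lower (22.2%, against 16%), with a median of -0.29. The higher one was Ddx4, a helicase of germ cells, by 1.47 (SE 0.16, adjusted p = 0.00198).

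Of 26 interferon-stimulated and antigen presentation genes 6 were lower (23.1%, against 16% of all features) and 3 higher (11.5%, against 15.5%), with a median of -0.41. Bst2, which tethers viruses to the cell, was lower by -2.53 (SE 0.40) and Psmb8, a subunit of the immunoproteasome, by -2.05 (SE 0.49), while Ifit3 was higher by 1.62 (SE 0.23), with 2 high arrays above background. Of 17 BMP pathway and Id genes 3 were higher (17.6%, near the 15.5% of all features) and 1 lower (5.88%, against 16%), with a median of -0.18. Without the 1 that was above background in 1 class alone, 2 of 16 were higher (12.5%) and 1 lower (6.25%). Of all features above background in both classes, 13.1% were higher and 17% lower. The ligand Bmp2 was lower by -1.68 (SE 0.24), and Smad9, a signal transducer, was at least 4.52-fold higher. Of 12 ependymal and cilia genes 1 was higher (8.33%, against 15.5% of all features) and 2 lower (16.7%, near the 16%), with a median of 0.03. Without the 2 that were above background in 1 class alone, 0 of 10 were higher (against 13.1% of features above background in both classes) and 2 lower (20%, against 17%). Rsph1, of the ciliary radial spoke, was lower by -2.43 (SE 0.40) and above background on 3 low arrays.

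The genes whose level over the 8 arrays was most like that of Cbx3 were chosen by that likeness and are given with no test. Pearson's r with the Cbx3 probe was 0.9949 for Snrnp27, a splicing protein, 0.9945 for Prss12, a neuronal protease, 0.9928 for Ppp2r3c, a phosphatase subunit whose other probe had the opposite sign, 0.9924 for the protease Prss53 and 0.9923 for Avpi1. These points fall into 2 clusters, so r mainly states how tight each cluster is. Snrnp27 read 5.01 to 5.06 on the high and 4.41 to 4.49 on the low arrays, a small and even step. Prss12 read -0.77 to -0.46 on the high and -2.34 to -2.18 on the low arrays.

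A comparison inside the titled groups asked whether the class difference holds between arrays of the same title. Whether the titles of WT floating 2 and KO adherent 2 were exchanged was not tested. If they were, arrays of 1 title differ in genotype and culture, and this comparison holds neither constant. In its fit, with title and class as terms, the titled WT floating and KO adherent arrays carry the class difference. There 914 features (3.71%) were higher and 457 (1.85%) lower in the low class. The genes named next also passed the first fit, which used the same arrays, so their values here are no independent support. Of genes above background on all arrays, Pcdhb3 (4.33 within titles, limma adjusted p = 0.0285), Aldh1a1 (3.38, adjusted p = 0.0285) and Hes5 (2.86, adjusted p = 0.0225) were higher. Lower were Col18a1 (-5.16, adjusted p = 0.0384), Timp1 (-4.80, adjusted p = 0.0344) and Ccnd1 (-2.20, adjusted p = 0.0426). The total of 1371 was not stable. With the slide row as a block it was 47 and with the replicate block 0 (8997 at an unadjusted p under 0.05). Leaving out WT floating 1 gave 17, WT floating 2 gave 4, WT floating 3 and KO floating 1 gave 23 each, either KO adherent array gave 8, and KO floating 2 gave 5153. In the same fit KO and WT floating titles at equal Cbx3 class differed in 0 features (0%) by limma, although 223 had an unadjusted p below 0.05. The smallest adjusted p was 0.316, and 1 feature passed after quantile normalization. At this number of arrays that does not show that the titles are alike.

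The WT floating and KO adherent titles share no array, so the class difference could be read once in each. Genotype and culture are constant within a title only if the titles are right, which was not tested. Across 24642 features, which are not independent replicates, the difference WT floating 2 minus the mean of WT floating 1 and 3 and the difference KO adherent 1 minus KO adherent 2 had Pearson's r = 0.63 and Spearman's rho = 0.587. Of 2890 features at least 2-fold higher in the first, 2652 (91.8%) were also higher in the second, where 47.8% of all features were higher. Of 2779 at least 2-fold lower in the first, 2251 (81.0%) were lower in the second, against 52.2% of all features. Over the 18877 features above background on all arrays r was 0.611, 90.5% of 1365 were also higher (40.8% of all), and 86.8% of 1990 also lower (59.2% of all). Hes5 differed by 2.92 and 2.77, Timp1 by -5.16 and -4.31, Col18a1 by -5.11 and -5.22, and Ccnd1 by -1.57 and -3.04. Nr4a1 differed by -3.12 in the first and by -0.08 in the second. The test of whether the class difference itself depends on the title called 0 features by limma. An unadjusted p below 0.05 was found for 1019, and 0.78 was the smallest after adjustment.

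**Figure D5:**
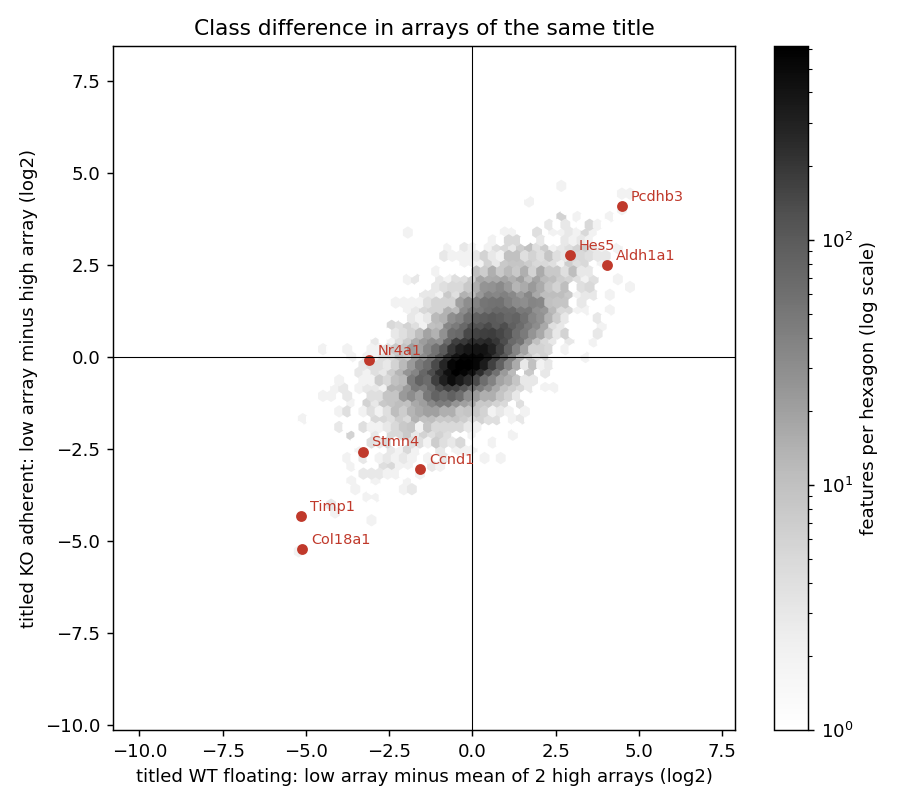
Log2 difference between Cbx3-low and Cbx3-high arrays titled WT floating (horizontal, WT floating 2 minus the mean of WT floating 1 and 3) against that between arrays titled KO adherent (vertical, KO adherent 1 minus KO adherent 2), with grey hexagons for numbers of features and red points for named genes that were above background on all arrays. The cloud runs from lower left to upper right (r = 0.63), Col18a1 lies at -5.11 and -5.22, and Nr4a1 lies at -3.12 on the horizontal axis and near 0 on the vertical.

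The 2 arrays whose titles oppose their Cbx3 level could also be kept out of the fit that called features. On the other 6 arrays 1603 features (6.5%) were higher and 1097 (4.45%) lower in the low class. Of the 1602 higher ones with a value on both arrays left out, 1552 (96.9%) were higher on WT floating 2 than on KO adherent 2, with a median difference of 1.17, and of the 1097 lower ones 1064 (97%) were lower there, with a median of -0.83. Over all features 44.5% were higher and 55.5% lower on WT floating 2. This is a single pair of arrays and has no replicate check.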

How the data were processed

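The deposited scanner files hold linear spot intensity for 8 arrays, made per the file headers by Agilent Feature Extraction 11.0.1.1 (9.1.3.1 per the submitters' processing notes). The authors' deposited value table matched the processed signal within 0.01% for 99.2% of 55681 probes, so it is linear and not normalized between arrays.

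Each array's 75th percentile was subtracted from log2 processed signal, outlier spots were dropped and repeated spots averaged. Probes were named through RefSeq accessions (GRCm38.p6), and 27235 of 55681 matched 1 gene. Probes well above background on at least 3 of the 8 arrays, in either class or both, were kept. The brightest probe stood for a gene, and unmatched probes stayed as features. The 24665 features were fitted with limma 3.58.1 in R 4.3.3 (lmFit, eBayes, two-sided, Benjamini-Hochberg threshold 0.05), first by Cbx3 class, then by title and class. The fits were tested on simulated data. A bound sets the brighter class's mean against, per array, the lowest signal above background, or the dim probe's signal where that is higher.

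Among genes that passed, did not overlap, had 8 values, were above background throughout the brighter class and bore no clone or predicted name, the 12 with the largest difference each way were named. Each list added its 4 largest passing members (2 bright ones where none passed), and 5 genes most like Cbx3 were described. Some genes that these rules chose are not reported here and are left out of the figures by name. Further list members were named after their values were seen. The members of the classes and the lists were chosen with earlier results of these data known. The comparison of arrays within 1 title, the counts over features above background in both classes and the reading on arrays left out were added after seeing the data. Other settings covered scaling, background correction (normexp, offset 50), filters, probes, moderation, blocks and arrays.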

Additional observations from a re-analysis of the deposited data

Results flagged for a closer look

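Within the 5 Cbx3-low arrays, 124 named genes with a value on all of them were searched for a single array far from the other 4, and 5 were found. Chance alone sets about 1 in 20 groups apart in this way. On KO floating 2, Tet1 was low at 1.13, where the other low arrays read 1.47 to 1.49, and Scrt1 was high at -1.11, where they read -2.92 to -2.44. On KO floating 3, Foxp2, a transcription factor of striatal neurons, was low at -5.18 against -3.55 to -3.07. On the same array Gbp2, an interferon-induced GTPase, was high at -0.93 against -1.91 to -1.76, and Liph was high at -4.59 against -6.52 to -6.00, where no low array was well above background.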

How the results depend on the processing

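The count of 7754 features by Cbx3 class was 3480 with no filter on dim probes (57% higher), 2765 with a 2-fold minimum, 2700 without WT floating 2 and KO adherent 2 and 2633 without the 2 arrays titled adherent. It ranged from 3530 to 9301 when each array was left out. With the replicate block it was 8817, with 7369 of the main calls among them. The deviations of same-numbered arrays from their class mean correlated at 0.484 (WT and KO floating 2) and 0.27 (KO floating 1 and KO adherent 1) within the low class, where all other pairs within a class lay between -0.647 and -0.146. Across the classes same-numbered pairs lay between -0.131 and 0.093. The numbers were therefore not taken to pair all arrays, and the correlations within the low class are a hint from the data, not the design. A random replicate block gave 9818. The count of 1371 within titles was 910 with quantile normalization, 2178 with a filter on every array of at least 1 class, 26 with no filter, 2823 with a trend and robust eBayes, 47 with the slide row as a block, 0 with the replicate block (8997 at an unadjusted p under 0.05), 6191 with a random replicate block, 142 with Y-linked expression as a covariate and 4 to 5153 when each array was left out. For KO against WT floating titles at equal class it was 1 with quantile normalization and 0 without any 1 array. Other settings kept these counts within 1.5 times. The share of higher calls, 49.2%, was 56.1% with quantile normalization, 53.5% with the median of probes detected on all arrays, 43.5% with normexp and 40% with a filter on all arrays. Of 3213 values of named genes under other settings 2885 kept direction and side of the threshold, 314 no longer passed, 12 passed newly and 2 turned, Nr4a1 (0.21) and Egr1 (0.49) without WT floating 2 and KO floating 2. List medians turned in at least 1 setting for the BMP, Cbx3 neighbour, DNA methylation, replication, HP1, cilia, germline, immediate early, imprinted, microglia and pan-neuronal lists. The causes were not tested. With 3 high arrays, and many of the higher features under background on them, the size of those differences is limited to bounds.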

Other observations

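Setdb1, a methyltransferase of histone H3 lysine 9, read -6.15 on KO floating 3, not above background there, and 0.40 to 1.02 on the 7 other arrays. Dlx2, a transcription factor of the ganglionic eminence, read -6.54 on KO adherent 2 and -3.63 to -2.29 on the others. Both were noticed after their values were seen, and each is a single spot value on 1 array.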
